A study of Brassica napus with 8 samples.

Results

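Of 74684 rapeseed genes with any count, 93 had transcripts in dry and germinating seed but few in young leaf or 50 DPA seed. They are the genes that reached 2 TMM CPM in both dry seed libraries and both germinating seed libraries and stayed under 1 TMM CPM in each of the 4 leaf and 50 DPA seed libraries. TMM CPM, the scale of the deposited normalized values, is the count of a gene relative to the library total, corrected by a trimmed-mean factor for each library. The rule allowed for the 200 genes with the highest lower tissue mean, but 93 genes passed, so all of them are members. The members were chosen by their levels in all 4 tissues. Their high level in 2 tissues and low level in the other 2 is therefore a description and carries no test.

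The study compared expression between organs of rapeseed (Brassica napus), an oil crop that carries an A and a C subgenome, in the cultivar Zhongshuang 11. Polyadenylated RNA was sequenced from 4 untreated tissues with 2 libraries each. The tissues were young leaf, 50 DPA seed as the labels call it, seed in the dry state, and seed germinated for 48 h. Per the labels' protocols, agronomic organs were grown in the field and vegetative tissues in a greenhouse. Which of these the germinating seed counts as is not stated. Neither is it stated whether libraries of 1 tissue are separate harvests, or whether the seed stages share a seed lot. Differences between stages thus describe separate samples, and a p-value here covers the variation from library to library alone, part or all of which may be technical. The germinating seed samples carry later sample numbers than the rest, and a second set of deposited counts lacks them. Any difference in handling or sequencing that goes with this cannot be told apart from the difference between germinating and dry seed. Library totals ran from 27635445 to 55721357 counts, and 2 TMM CPM stood for 48.3 counts in the shallowest dry seed library and 146.3 in the deepest germinating seed library. Most counts above 0 were even, which points to a fragment being counted once per mate, so a level rests on fewer fragments than counts.

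A maturing seed fills with reserve proteins and oil, dries, and enters a quiescent state in which messenger RNA is kept. Part of this stored RNA is known to be used in the first hours after water uptake, while transcription resumes and much of the stored pool is broken down. The rule takes genes with transcripts in both dry and germinating seed and few in the other tissues sampled. Where such genes belong in this course was not tested. Neither was it tested whether their transcripts in germinating seed were stored or newly made. The files give gene IDs without names or products, and a gene table of a different rapeseed assembly, Da-Ae, held none of the IDs, members included. Members are therefore given by ID, with no function, position or sequence. For the same reason the tissue labels could not be checked against marker genes. In whole tissues, fewer cells of a type and less RNA per cell cannot be told apart.

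The pattern was uncommon. With the same limits applied to every tissue, 20221 genes were at or above 2 TMM CPM in all 4 tissues, 1676 in young leaf and germinating seed only, and 667 in 50 DPA and dry seed only. The 93 genes of dry and germinating seed exceeded only the 75 of young leaf and dry seed. A further 23510 genes lay between the limits in at least 1 tissue and were not placed. Among the 579 genes that reached the minimum in dry seed and were under the maximum in leaf and 50 DPA seed, 93 (16.1%) also reached it in germinating seed, 107 (18.5%) lay between the limits there and 379 (65.5%) were under 1 TMM CPM. Among the 1080 genes that reached it in germinating seed and were under the maximum in leaf and 50 DPA seed, the same 93 made up 8.61%, and 880 (81.5%) were under 1 TMM CPM in dry seed. For 588 of these 1080 genes, both dry seed libraries were at 0 counts.

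**Figure D1:**
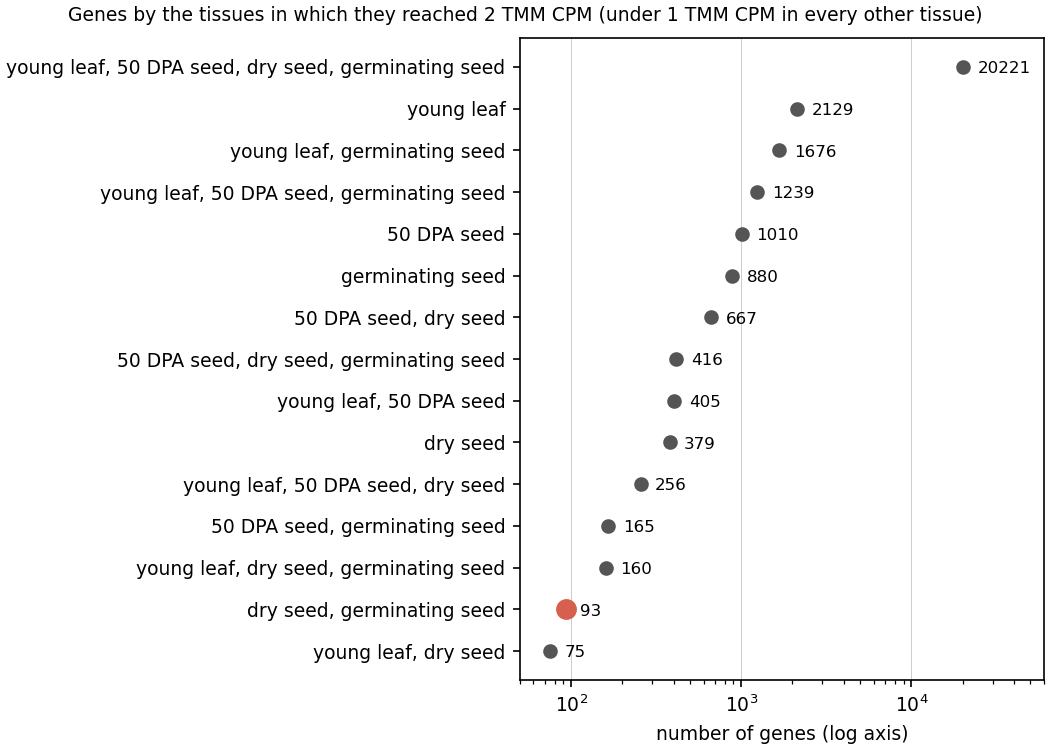
Number of genes (horizontal log axis) by the tissues in which both libraries reached 2 TMM CPM, with every other tissue under 1 TMM CPM in both libraries. The enlarged point marks the 93 genes of dry and germinating seed, between 75 genes of young leaf and dry seed and 160 of young leaf, dry and germinating seed.

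Most members stood not far above the minimum. In dry seed the tissue means ran from 2.06 to 706.6 TMM CPM with a median of 6.16, and in germinating seed from 2.15 to 296.5 with a median of 5.01. A mean of at least 10 TMM CPM was reached by 29 members in dry seed and 22 in germinating seed, and a mean of at least 100 by 4 and 2. For comparison, the 22988 genes at or above 2 TMM CPM in all 4 dry and germinating seed libraries had medians of 13.7 and 12.2. The members made up 0.405% of those genes. Their share of all counts was 0.211% ± 0.00961 in dry seed, and it was 0.166% ± 0.00323 after germination (SD, n = 2).

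In the tissues where the rule kept them low, members were scarce but seldom without any read. Tissue means had a median of 0.184 TMM CPM in young leaf and 0.284 in 50 DPA seed. No count in either library was found for 15 members in leaf and 12 in 50 DPA seed, and 6 members had none in all 4 libraries. These 6 stood between 2.48 and 45.6 TMM CPM in dry seed and between 2.37 and 15.7 in germinating seed. At the other end, 49 members reached 0.5 TMM CPM in at least 1 leaf or 50 DPA seed library. The mean was higher in 50 DPA seed than in leaf for 50 members and lower for 37, with 6 equal. Many of these values rest on few reads, as 35 members in leaf and 38 in 50 DPA seed had at most 6 counts in both libraries. As a share of all counts, without TMM factors, members took more in leaf (0.00317%) than in 50 DPA seed (0.00202%).

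The limits cut through a continuous range of genes. Just inside the minimum, the lowest seed values of 3 members were 2.02, 2.05 and 2.06 TMM CPM, and just outside it were genes at 1.996, 1.988 and 1.985. Just inside the maximum, the highest leaf or 50 DPA values were 0.993, 0.973 and 0.945, and the 3 nearest genes outside stood at 1.02 each. In all, 58 genes missed only the minimum by up to 0.5 TMM CPM, and 94 genes missed only the maximum by as much.

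**Figure D2:**
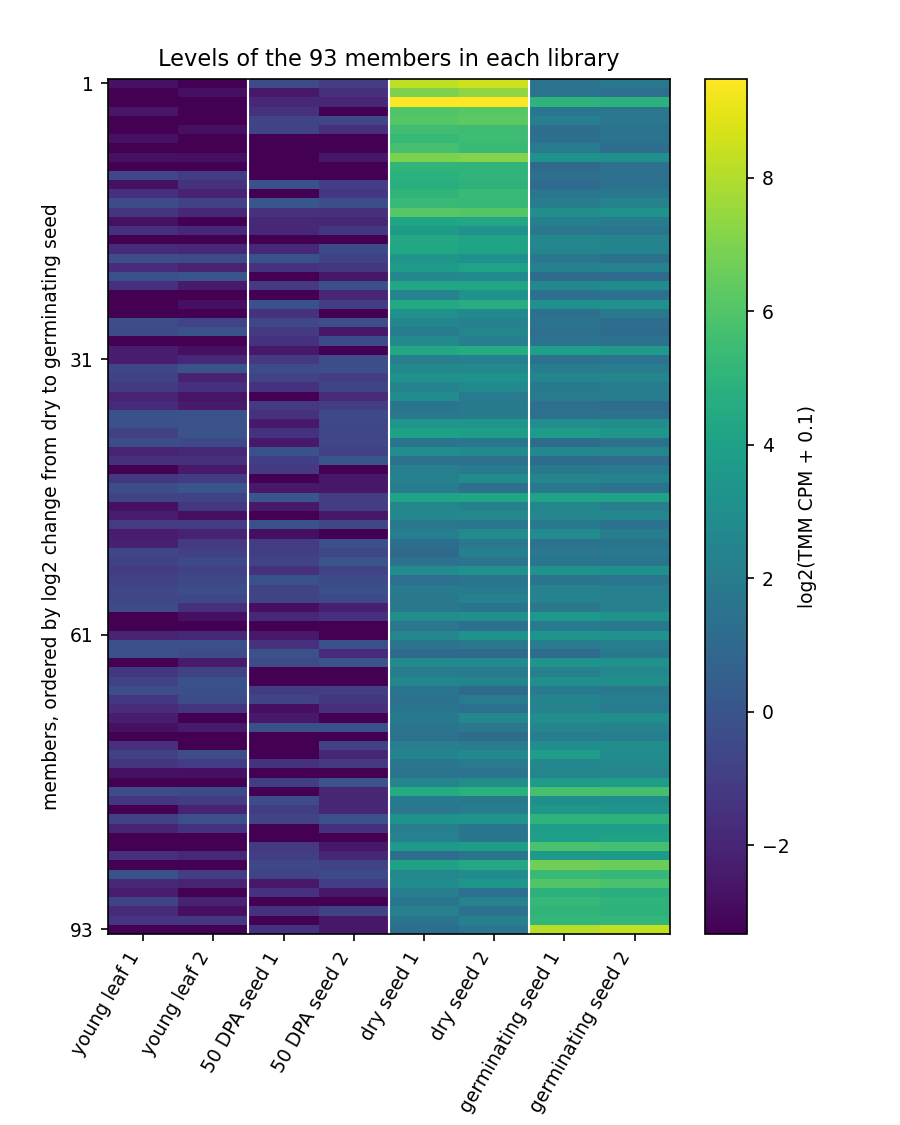
Level of each of the 93 members (rows) in each of the 8 libraries (columns), as log2(TMM CPM + 0.1), with rows ordered by the log2 change from dry to germinating seed. The 4 leaf and 50 DPA columns are dark by the rule. In the seed columns, the upper rows are bright in dry seed, the lower rows in germinating seed, and the middle rows are alike in both.

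The 2 members with the highest lower tissue mean show both directions of change between the seed stages. ZS11A01G029520 stood at 698.3 and 714.9 TMM CPM in the dry seed libraries and at 32.1 and 28.7 in the germinating seed libraries. It had 0 counts in both leaf libraries and 0.169 and 0.158 TMM CPM, 4 counts each, in those of 50 DPA seed. Both dry seed values lay far above both germinating seed values, with a mean 23.3-fold higher. The log2 change from dry to germinating seed was -4.56 ± 0.10 (SE; edgeR adjusted p = 1.98e-11). It ranked 141 of 74684 genes by level in dry seed and 5504 in germinating seed. Against leaf, taken at a floor of 6 counts (3 read pairs) per library, it was at least 5115-fold higher in dry seed and at least 220.0-fold higher in germinating seed, which describes the choice of the gene.

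ZS11C07G037240 was the other, at 23.3 and 28.6 TMM CPM in dry seed and 53.5 and 51.3 in germinating seed. The 2 tissues did not overlap, and germinating seed was higher, with a log2 change of 0.99 ± 0.15 (SE; edgeR adjusted p = 0.000103). Leaf held 0.658 and 0.632 TMM CPM of it, and the 50 DPA seed libraries held 0 and 0.158.

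Which of the seed stages was higher was not set by the rule, although its minimum held in both and so narrows the changes that members could show. The question was asked with edgeR's quasi-likelihood test over all 59062 genes that passed the filter on low counts. All 93 members were among them, as the minimum in 4 libraries nearly ensures. In germinating seed, 20 members were higher and 32 lower than in dry seed (adjusted p under 0.05), and 41 were not called. The 52 calls are 55.9% of the members, against 73.2% called among all genes tested. By direction, 21.5% of members were higher, where 44.7% of all genes tested were, and 34.4% lower, where 28.4% of all genes tested were. Among the 22988 genes with the same minimum in both tissues, 77.6% were called, 33.8% higher and 43.7% lower. Of the 52 called members, 44 also differed by at least 2-fold, 29 of them lower and 15 higher in germinating seed. Of all genes tested, 61.2% met both conditions, but most of these genes lack the minimum in both tissues. By size alone, 31.2% of members were at least 2-fold lower and 16.1% at least 2-fold higher. Among the genes with the same minimum, these shares were 28.2% and 20.9%, near those of the members. Members had lower median levels than the genes with the same minimum, and the part of this in their fewer calls was not tested.

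The balance of directions turned with 1 of the scales tried. With total counts alone, 39 members were higher and 24 lower in germinating seed, whereas DESeq2 size factors gave 20 and 34, and upper-quartile factors 20 and 32. All genes tested shifted the same way. With total counts alone, 32689 of them were higher and 12030 lower, against 26415 and 16802 on the TMM scale. The members' median log2 change was -0.10 on the TMM scale and 0.51 without TMM factors, while that of all genes tested went from 0.59 to 1.21. The median of the members thus lay below that of all genes tested on both scales. On the TMM scale the median over the genes with the same minimum was -0.19. Counts of libraries that do not overlap leaned the same way in direction. The dry seed libraries both lay above the germinating ones in 43 of the 93 members, against 31.9% of all genes tested. They lay below them in 38, against 51.8%. In 12 members the tissues overlapped. In either direction, 83.7% of all genes tested had tissues that did not overlap. The members' share was not below this, whereas their share of calls was below that of all genes tested. The spread between libraries was larger in dry seed, with a common biological coefficient of variation of 0.268. It was 0.111 in germinating seed and 0.0534 in leaf. A spread shared by all tissues may thus make p-values too small for dry seed. The tissues where members were kept low also enter this shared spread. With only the dry and germinating seed libraries in the fit, 59 members were called, against 52. Of these 59, 23 were higher and 36 lower in germinating seed. That fit called 39772 of 52778 genes tested, against 43217 of 59062. What part the spread of the other tissues had in this was not tested. The 2 dry seed libraries differed by more than 1.5-fold in 14 members (15.1%), against 8.78% of the genes with the same minimum, and the germinating seed libraries in 4 members (4.30%), against 1.02% of those genes.

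**Figure D3:**
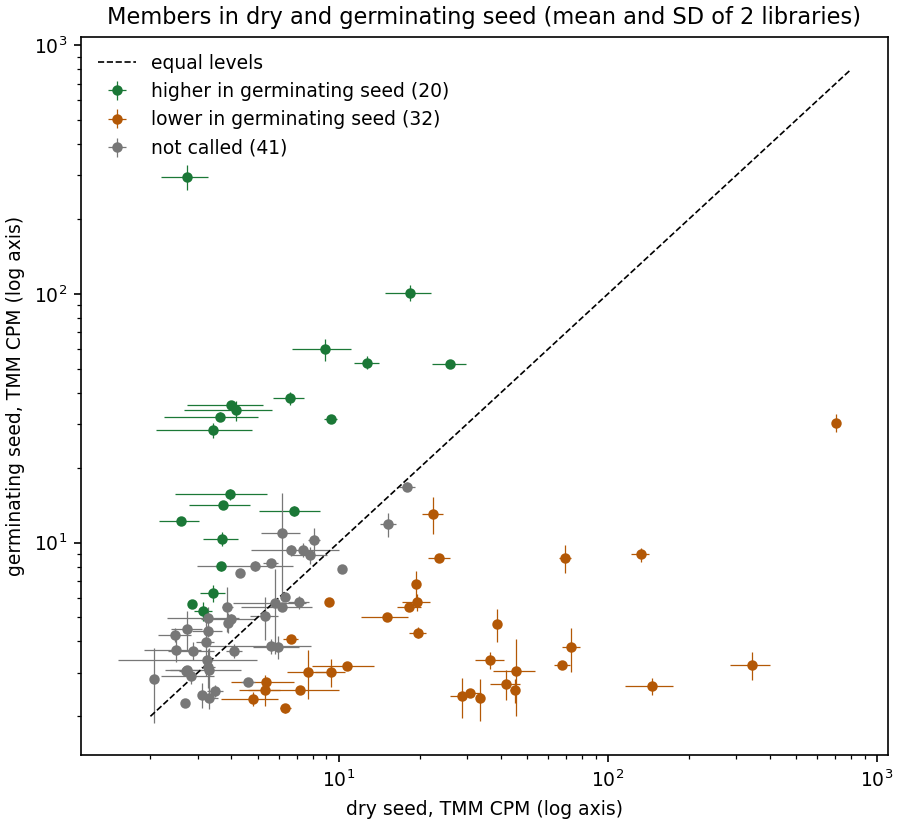
Mean level of each member in dry seed (horizontal) and germinating seed (vertical), both in TMM CPM on log axes, with bars of 1 SD (n = 2). Colours mark the 20 members higher in germinating seed, the 32 lower there and the 41 not called on the TMM scale. Points line up along both axes near the minimum and few are high in both tissues.

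The order of the members by level differed between the seed stages. Of the 20 highest members in dry seed, 19 were lower in germinating seed, and of the 20 highest in germinating seed, 15 were higher there and 2 lower. The 2 lists share 3 members, 15% of each. Ranking by the level in 1 stage itself favours a lower level in the other, so nothing is read from these counts. Across the 93 members, log2 means in dry and germinating seed correlated with a Pearson's r of 0.02 and a Spearman's rho of 0.0832. Across the 22988 genes with the same minimum, r was 0.494. These correlations describe genes measured in the same libraries, and the limits of the rule remove part of the range.

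Members lower in germinating seed fell into those with very large and those with moderate differences. The difference was at least 8-fold in 15 of the 32, from 4-fold to 8-fold in 1, and under 4-fold in 16. The 15 stood between 28.7 and 706.6 TMM CPM in dry seed, with a median of 45.6, and between 2.37 and 30.4 in germinating seed, with a median of 3.22. They held 76.8% of the summed level of all members in dry seed and 6.78% in germinating seed. A level at least 8-fold lower in germinating seed was found in 16.1% of members, against 7.98% of all genes tested and 4.15% of the genes with the same minimum. No test was made of this difference in shares. With total counts alone, 11 members differed that much in this direction, and the share of all genes on that scale was not counted. The 16 members under 4-fold were less abundant, with means between 4.81 and 23.7 TMM CPM in dry seed.

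ZS11C04G067950 showed the largest fall. Its levels were 301.5 and 382.0 TMM CPM in dry seed and 2.93 and 3.52 in germinating seed. The dry seed libraries were further apart than those of ZS11A01G029520, yet each lay above both germinating seed libraries. The log2 change was -6.76 ± 0.18 (SE; edgeR adjusted p = 2.49e-11). In 50 DPA seed it stood at 0.677 and 0.394 TMM CPM, so that dry seed was 638-fold higher, and the leaf libraries held 2 counts and 0 counts. Germinating seed was 6.02-fold above 50 DPA seed.

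ZS11A04G026990 came next, at 124.3 and 166.5 TMM CPM in dry seed and 2.79 and 2.49 in germinating seed. Its log2 change was -5.80 ± 0.19 (SE; edgeR adjusted p = 1.35e-10). Its 50 DPA seed libraries held 2 and 6 counts and its leaf libraries 0 and 2, at or under the floor of 6 counts. Both of these genes thus passed the minimum in germinating seed by a narrow margin, after levels in dry seed that ranked 334 and 1062 among all genes.

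Members higher in germinating seed had fewer differences of that size. Among the 20, the difference was at least 8-fold in 4, from 4-fold to 8-fold in 6 and under 4-fold in 10. Their median was 3.84 TMM CPM in dry seed and 29.9 in germinating seed. Together they held 68.5% of the summed level of members in germinating seed and 5.59% in dry seed. A level at least 8-fold higher in germinating seed was found in 24.7% of all genes tested, most of which lack the minimum in dry seed that limits the members, and in 2.16% of the genes with the same minimum against 4.30% of members. With total counts alone, 8 members reached that size, again without a share of all genes to set beside it.

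ZS11C04G001170 had the largest rise among members. It stood at 2.34 and 3.11 TMM CPM in dry seed, 74 and 75 counts, and at 271.9 and 321.1 in germinating seed. The log2 change was 6.76 ± 0.18 (SE; edgeR adjusted p = 8.64e-11), and by level the gene ranked 141 of 74684 in germinating seed and 26463 in dry seed. No count was found in leaf, so germinating seed was at least 2147-fold and dry seed at least 19.7-fold higher than leaf at the floor. The 50 DPA seed libraries held 6 and 2 counts.

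ZS11A02G022960 stood at 3.10 and 4.89 TMM CPM in dry seed and 35.9 and 35.3 in germinating seed. The germinating seed libraries were nearly equal while those of dry seed were not, and the 2 tissues did not overlap. Its log2 change was 3.15 ± 0.22 (SE; edgeR adjusted p = 8.62e-08). In leaf it stood at 0.282 and 0.316 TMM CPM, and in 50 DPA seed at 0 and 0.0788.

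**Figure D4:**
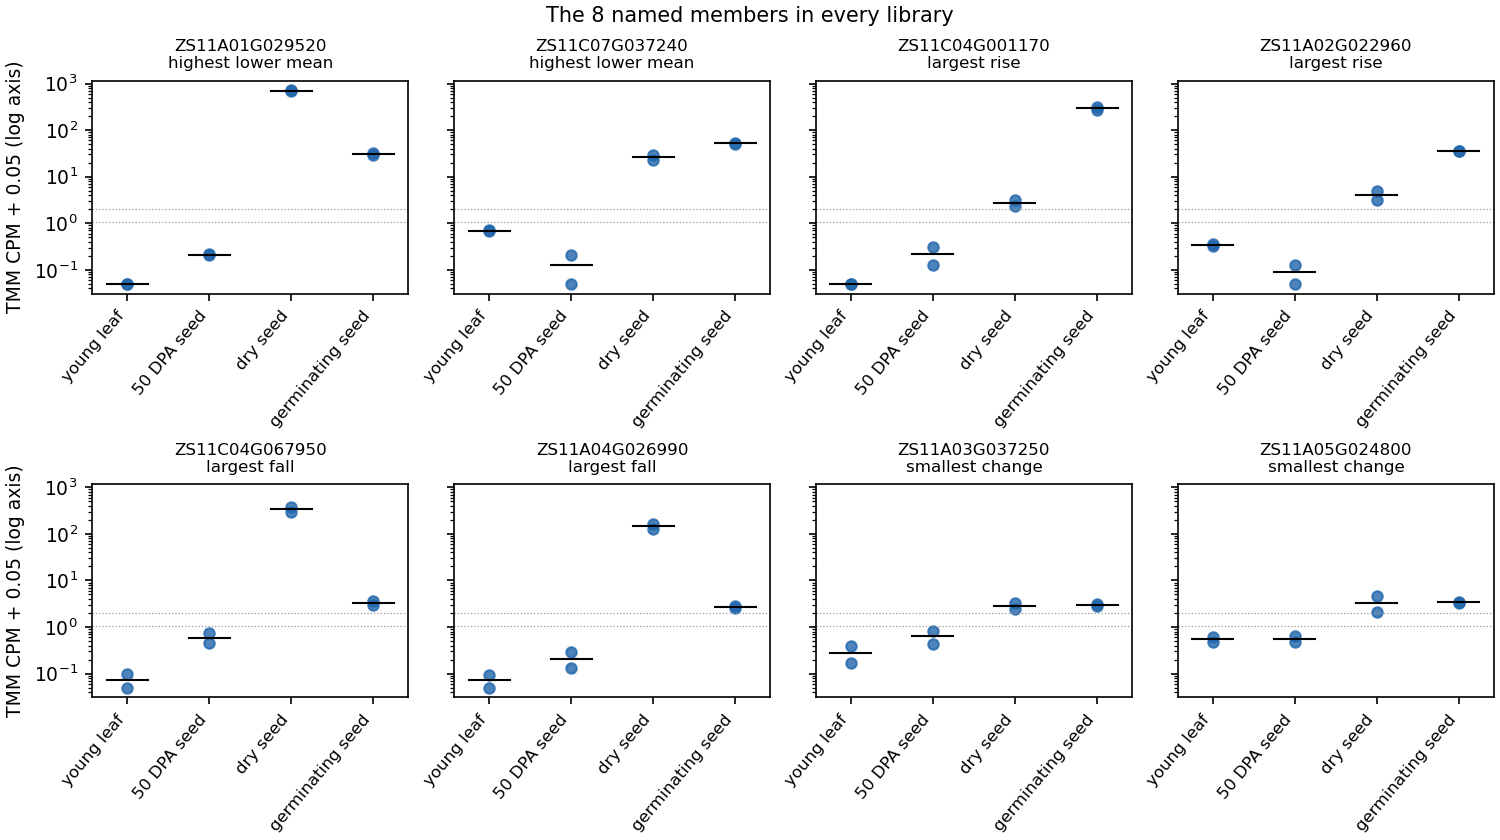
Level of the 8 named members in every library, as TMM CPM + 0.05 on a log axis. Each point is a library, bars are means of 2 libraries, dotted lines mark the limits of 1 and 2 TMM CPM, and the heading of each panel says by which part of the rule for named genes it was taken. Dry seed is highest in ZS11A01G029520, ZS11C04G067950 and ZS11A04G026990, and germinating seed in ZS11C07G037240, ZS11C04G001170 and ZS11A02G022960.

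The 41 members without a call lay mostly near the minimum. Their median was 3.996 TMM CPM in dry seed and 4.49 in germinating seed, and their log2 changes ran from -0.77 to 0.81. The highest of them stood at 18.0 and 16.8 TMM CPM in the 2 tissues. All 12 members whose tissues overlapped belonged to this group. A missing call does not show that the levels were alike. ZS11A03G037250, with the smallest change, stood at 2.37 and 3.27 TMM CPM in dry seed and 2.76 and 3.07 in germinating seed, a log2 change of 0.03 ± 0.41 (SE; edgeR adjusted p = 0.98). ZS11A05G024800 stood at 2.02 and 4.47 TMM CPM in dry seed and 3.27 and 3.46 in germinating seed, a log2 change of 0.04 ± 0.38 (SE; edgeR adjusted p = 0.953). In the latter, the dry seed libraries enclosed both germinating ones, and in leaf and 50 DPA seed it ranged from 0.423 to 0.591 TMM CPM.

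**Figure D5:**
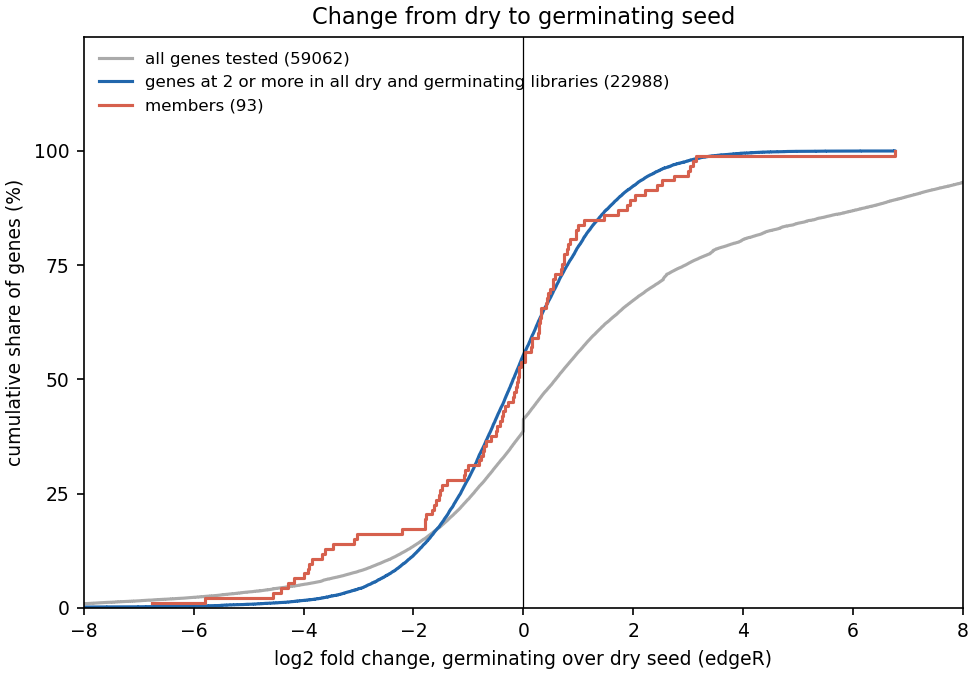
Cumulative share of genes (vertical, in percent) by log2 fold change of germinating over dry seed (horizontal), for the 93 members, for the 22988 genes at or above 2 TMM CPM in all dry and germinating seed libraries, and for all 59062 genes tested. Curves are cut at 8 in both directions, and rises beyond that among all genes are not shown. The members' curve runs close to that of genes with the same minimum in the middle, where 52.7% of members and 50.8% of those genes were within 2-fold. At the left end, 16.1% of members and 4.15% of those genes were at least 8-fold lower in germinating seed on the TMM scale. At the right end, 4.30% and 2.16% were at least 8-fold higher.

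The contrasts that chose the members gave calls for all of them, as the rule makes nearly certain, and nothing is read from these calls. Dry seed was higher than 50 DPA seed in 93 of 93 members, with a median log2 change of 5.16, where 25.9% of all genes tested were higher. It was higher than young leaf in all 93, with a median of 5.46, where 30.8% of all genes tested were. Germinating seed was higher than 50 DPA seed with a median of 4.65 and higher than young leaf with a median of 5.21, in all 93 members each, where 39.2% and 32.6% of all genes tested were. The lowest log2 changes of a member were 1.88, 1.48, 1.68 and 1.33 in the same order, so some members differed only a few-fold. These comparisons share libraries with each other. Between 50 DPA seed and leaf, where every member was under 1 TMM CPM, 34 members were called, 21 of them higher in 50 DPA seed, against 69.4% of all genes tested called in either direction.

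The gene IDs carry a chromosome prefix that the rule did not use. Members occurred under all 19 prefixes, 51 with an A prefix and 42 with a C prefix. The A share was 54.8%, beside 45.1% of all listed genes with such a prefix, 47.9% of the 378 placed genes above the minimum in dry seed only and 51.8% of the 879 in germinating seed only. Of the 415 placed genes above the minimum in all 3 seed stages but not in leaf, 50.1% had an A prefix. Among members lower in germinating seed, 19 of 32 had an A prefix, and among those higher there, 11 of 20. By prefix, members numbered from 1 of 4410 listed genes under C02 to 7 of 2368 under A04, and A09 and C04 held 9 each. No member stood next to another in the order of IDs, nor within 5 IDs of one. In the genes of dry seed only and of germinating seed only, 6.08% and 5.57% stood next to another of their own set, but these sets are larger, so that the shares cannot be set against that of the members. An ID next to the member was at or above 2 TMM CPM in all dry and germinating seed libraries for 47 members (50.5%), beside 41.7% of all listed genes. The same was found for 51.1% of the genes in all 3 seed stages but not in leaf, which is near the members' share. It was found for 42.3% of those in dry seed only and 40.6% of those in germinating seed only. No test was made of these shares.

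Sets of the neighbouring patterns held more genes. The 379 genes above the minimum in dry seed only had a median of 4.62 TMM CPM there and reached 266.3, and took 0.362% of dry seed counts. The 93 members took 0.211%, and the highest of them stood at 706.6 TMM CPM. The 880 genes of germinating seed only had a median of 4.47 TMM CPM there, reached 483.4, and took 1.51% of counts, against 0.166% for the members. The 416 genes above the minimum in all 3 seed stages but not in leaf took 13.5% of dry seed counts and 1.79% of germinating seed counts. These values describe sets made by limits on the same libraries, and no test was made between them.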

How the data were processed

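Per the labels' protocols, libraries from total RNA used Illumina's TruSeq chemistry and paired-end NovaSeq runs. The submitters' processing notes list edgeR, FastQC, HISAT2 and SAMtools. Their versions, the counting tool, the build and the annotation: not given in the sources used here. The authors deposited whole-number counts for 106059 IDs. The 4-tissue count table holds 1 line of alignment file names, which was left out. The authors' deposited TMM signal equals counts times 1 constant per library, to within 0.00133. It lists the 74684 IDs with a count. Near-identical homoeologous or tandem copies may share reads, so the level of a single ID is uncertain to that extent.

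The rule was applied to the deposited signal. Counts of all 8 libraries were filtered with filterByExpr, scaled by TMM and tested with edgeR 4.0.16 (robust quasi-likelihood, R 4.3.3), with 1 mean per tissue, no covariate, 2-sided, and Benjamini-Hochberg adjustment over 59062 genes. Standard errors are the log2 change over the square root of F. Folds against tissues with 0 counts use a floor of 6 counts per library, and that floor covers counting error only. The test was also run on simulated counts that used the spread shared by all tissues. That run cannot show how the test does at the larger spread of dry seed, and nothing is read from it. Members and lists were chosen with earlier results of these data known.

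Named members were the 2 with the highest lower tissue mean, the 2 largest rises and 2 largest falls among called members without overlap, and the 2 smallest changes; no adjacent pair existed to name. Lists by product name and cell type markers could not be applied (0 IDs matched).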

Additional observations from a re-analysis of the deposited data

How the results depend on the processing

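The number of genes that pass the rule depends on its limits. A minimum of 1 TMM CPM gave 267 genes and one of 4 gave 35; a maximum of 0.5 gave 44 and one of 2 gave 303; limits on tissue means gave 149. On total counts alone 153 genes passed, 81 of the 93 among them, and with any 1 library left out 97 to 113 did. Members called between germinating and dry seed numbered 40 to 63 under all alternatives, against 52. Leaving out 1 library gave 40 to 57, with 16 to 24 higher and 24 to 34 lower. The library then alone in its tissue was assumed to vary like the other tissues. With total counts alone, 39 members were higher in germinating seed, against 20, and 32689 of the 59062 genes tested were, against 26415. Of the 52 calls, 44 or more recurred in the same direction under alternatives with all libraries, 39 or more with 1 left out, and 0 were called in the other direction. With the replicate block 49 were called. Deviations from the tissue means correlated at -0.00856 to 0.00637 between libraries of equal number (6 tissue pairs). No shared deviation was thus seen, which cannot show whether these libraries share plants, a harvest or a run. Of 136 alternative values of the 8 named members, 128 kept direction and call. The other 8 changed sign without a call in members taken for their small changes. ZS11A03G037250 had log2 changes of -0.052 with DESeq2 size factors, -0.054 in the DESeq2 test and -0.00075 with halved counts, and -0.17 to 0.28 with 1 library left out. ZS11A05G024800 had -0.040 with DESeq2 size factors, -0.047 in the DESeq2 test, and -0.41 to 0.72 with 1 library left out. The A share was 51.0% among members chosen on total counts alone and 52.3% with a maximum of 0.5, and 1.31% and 0 of these stood next to another member; all genes passing and the top 100 are the same 93 genes.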
